A study of Mus musculus with 30 samples.

Results

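AMPA and kainate receptors are the ionotropic glutamate receptors that carry most fast excitatory transmission between neurons. The genes described here are the 4 AMPA receptor subunit genes (Gria1, Gria2, Gria3 and Gria4) and the 5 kainate receptor subunit genes (Grik1, Grik2, Grik3, Grik4 and Grik5) of the mouse. The rule is membership of the gene families and uses no measured value. All 9 were found among the 17477 genes of the deposited table, and all 9 passed the filter on low counts in every comparison. Hippocampal RNA was sequenced from 30 C57 BL/6J mice, with 1 library for each animal. In females, 8 mice were socially isolated (SI, caged singly from weaning into adulthood) and 7 were group-housed (GH). In males, 7 mice were SI and 8 were GH. All mice were of the same strain and source, none carried a transgene or received an agent, and housing was the treatment compared within each sex.

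AMPA receptors are tetramers assembled from the GluA1 to GluA4 proteins (encoded by Gria1 to Gria4), and the presence of edited GluA2 makes the channel nearly impermeable to calcium. In the hippocampus GluA1 and GluA2 are the main partners in pyramidal neurons, GluA3 pairs with GluA2, and GluA4 is best known from fast-spiking interneurons. Kainate receptors are tetramers of GluK1 to GluK5 (Grik1 to Grik5). GluK1 to GluK3 can form channels on their own, whereas GluK4 and GluK5 bind the agonist with high affinity but need a GluK1 to GluK3 partner, and kainate receptors are known for their role at mossy fibre synapses onto CA3 neurons.

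The members share a short coding stretch that lines the pore and holds the Q/R site, a glutamine codon that RNA editing changes to an arginine codon in Gria2, Grik1 and Grik2 transcripts. The 30 bases around that codon are shown because they are the point at which a gene count and a functional receptor part company: a count adds edited and unedited, and flip and flop spliced, transcripts of a gene together. Each sequence was read 5′ to 3′ on the coding strand from a GENCODE vM1 transcript (NCBIM37), and the capitals mark the Q/R codon.
Gria1: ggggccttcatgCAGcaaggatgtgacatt
Gria2: ggtgcctttatgCAGcaaggatgcgatatt
Gria3: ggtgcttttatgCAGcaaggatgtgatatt
Gria4: ggtgcctttatgCAAcaaggatgtgacatt
Grik1: ggagctctcatgCAGcaaggatcggagctg
Grik2: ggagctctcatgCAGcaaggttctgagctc
Grik3: ggctccctgatgCAGcaaggatctgaactg
Grik4: ggaggcttcatgCAGcaaggctccactatt
Grik5: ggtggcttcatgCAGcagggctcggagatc
The codon was CAG in all members but Gria4, where it was CAA, which also encodes glutamine. Against the Gria2 window, those of the other AMPA genes differed at 2 to 4 of the 30 bases and those of the kainate genes at 7 to 10. The Gria2 window lay in exon 11 of 17 of its transcript, at chr3:80510818-80510847 on the minus strand. The Grik5 window lay in exon 15 of 20, at chr7:25807501-25807530 on the minus strand. In Grik1, Grik2 and Grik3 the window crossed an exon junction and so covered 2 exons. Editing and splice form were not analysed here.

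On NCBIM37 the AMPA genes lie on 4 chromosomes, Gria1 (ENSMUSG00000020524) at chr11:56824889-57143746 on the plus strand, Gria2 (ENSMUSG00000033981) at chr3:80488858-80606713 on the minus strand, Gria3 (ENSMUSG00000001986) at chrX:38754031-39031778 on the plus strand and Gria4 (ENSMUSG00000025892) at chr9:4417899-4796234 on the minus strand. The kainate genes lie on 5, Grik1 (ENSMUSG00000022935) at chr16:87896441-88289947 on the minus strand, Grik2 (ENSMUSG00000056073) at chr10:48819266-49508572 on the minus strand, Grik3 (ENSMUSG00000001985) at chr4:125167944-125391417 on the plus strand, Grik4 (ENSMUSG00000032017) at chr9:42326218-42752576 on the minus strand and Grik5 (ENSMUSG00000003378) at chr7:25794872-25857388 on the minus strand. The members differ in base composition, from 38.1% GC in the longest Gria2 transcript to 62.3% in that of Grik5. In that annotation the exons of Gria2, Gria3 and Gria4 share 29, 91 and 16 bases with another gene on the same strand that is not in the table.

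Libraries held between 18809307 and 100844898 counts in all. The lowest count of a member in any library was 118 (Grik1) and the highest 94043 (Gria1), so every member was measured in every mouse. The libraries were checked against marker lists for the hippocampus, and all 6 markers each of dentate granule, CA1 and CA3 pyramidal cells were measured, with summed levels over the groups of 181 to 326, 549 to 881 and 185 to 251 CPM (counts scaled to the TMM-normalized library size). Markers of the choroid plexus, which lies against the hippocampus, summed to between 39.5 and 4888 CPM over the libraries. The libraries of 3 SI males (animals 25, 33 and 39) stood apart from the rest. The slope of log2 CPM against transcript length (on a log10 scale of length, with the mean of all libraries as the reference) was between -1.38 and -1.06 in these 3 and between -0.37 and 0.52 in the other 27, so long transcripts were low in them. The male Log2FC of each member is given below with and without them.

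Gria1 and Grik5 dominated their families. Levels of different genes were compared as counts per kilobase of the longest transcript, scaled to a constant sum in each library, and are called levels per length. Over the 30 mice the level per length of Gria1 was 308 ± 80.3 (SD), of Gria2 176 ± 34.0, of Gria3 50.9 ± 13.2 and of Gria4 18.4 ± 4.24. Gria1 exceeded Gria2, Gria2 exceeded Gria3 and Gria3 exceeded Gria4 in 27 of the 30 mice. In the remaining 3, which were SI males 25, 33 and 39, Gria2 was above Gria1. The AMPA order of the means was the same when the mean transcript length or the coding length was used.

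Among the kainate genes the level per length of Grik5 was 189 ± 21.2, and that of each of the others was far below it. Grik4 stood at 20.5 ± 3.58 and Grik2 at 19.4 ± 4.37, a difference smaller than the spread of either over the mice. Grik3 followed at 11.7 ± 3.99 and Grik1 at 7.14 ± 1.73. Grik5 was first in all 30 mice, whereas Grik4 exceeded Grik2 in 19 and Grik2 exceeded Grik4 in 11. Below Grik5 the order depended on the length used, with Grik2 above Grik4 by mean transcript length and Grik3 above Grik2 by coding length. The longest Grik1 transcript has 2894 bases, and the longest coding length among its 5 transcripts is 2694 bases. The gene model may thus lack much of the untranslated ends, and the Grik1 level per length is uncertain.

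Shares within a family do not depend on how a library is scaled, but they do depend on the length used. Those given here are for the longest transcript. By mean transcript length the 30-mouse means were 335 for Gria1 and 145 for Gria2, and by coding length 291 and 206. The Grik5 mean was 154 by mean transcript length and 114 by coding length. In GH mice Gria1 made up 57.8% ± 2.40 of the summed AMPA level per length in females (SD, n = 7) and 56.9% ± 1.42 in males (SD, n = 8). The Gria2 share was 29.0% ± 2.07 in GH females and 30.1% ± 1.21 in GH males. Gria3 held 9.48% ± 0.41 and 9.58% ± 0.24, and Gria4 3.73% ± 0.32 and 3.51% ± 0.39. In SI females the Gria1 share was 56.9% ± 2.32 and the Gria2 share 30.3% ± 1.79 (SD, n = 8), within 1 SD of the GH females for both. Grik5 made up 76.9% ± 2.02 of the kainate sum in GH females, 74.7% ± 2.02 in SI females and 75.5% ± 1.56 in GH males.

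The makeup of SI males depended on the 3 libraries that stood apart. Over all 7 SI males the Gria2 share was 41.5% ± 14 and the Gria1 share 48% ± 11.7. In animals 25, 33 and 39 the Gria2 share was 62%, 56.7% and 48.9%, and the Gria1 share 30.6%, 35.4% and 42.0%. In the other 4 SI males the Gria2 share was 30.7% ± 1.26 and the Gria1 share 56.9% ± 1.25, close to the GH males. The Grik5 share was 83.1% ± 1.12 in the 3 and 76% ± 2.95 in the 4. The high Gria2 share was seen in those 3 libraries and in no other library of either sex, where it ran from 26.5% to 33.6%. The summed level of neuron markers was 6477 to 7345 CPM in the 3 and 9099 to 11415 in the other SI males, that of dentate granule markers 188 to 197 against 202 to 301, that of CA1 markers 549 to 593 against 603 to 828, and that of oligodendrocyte precursor markers 81.7 to 104 against 150 to 172. The lists with higher sums in the 3 were interneuron (939 to 1015 against 748 to 912 CPM), oligodendrocyte (8187 to 10617 against 5135 to 7907 CPM), microglia (396 to 482 against 255 to 307 CPM) and endothelial markers (228 to 281 against 162 to 204 CPM). The sums of the astrocyte, CA3, choroid plexus and thalamus lists overlapped between the 3 and the 4. The part of the marker levels and of the length slope in the shares was not tested.

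**Figure D1:**
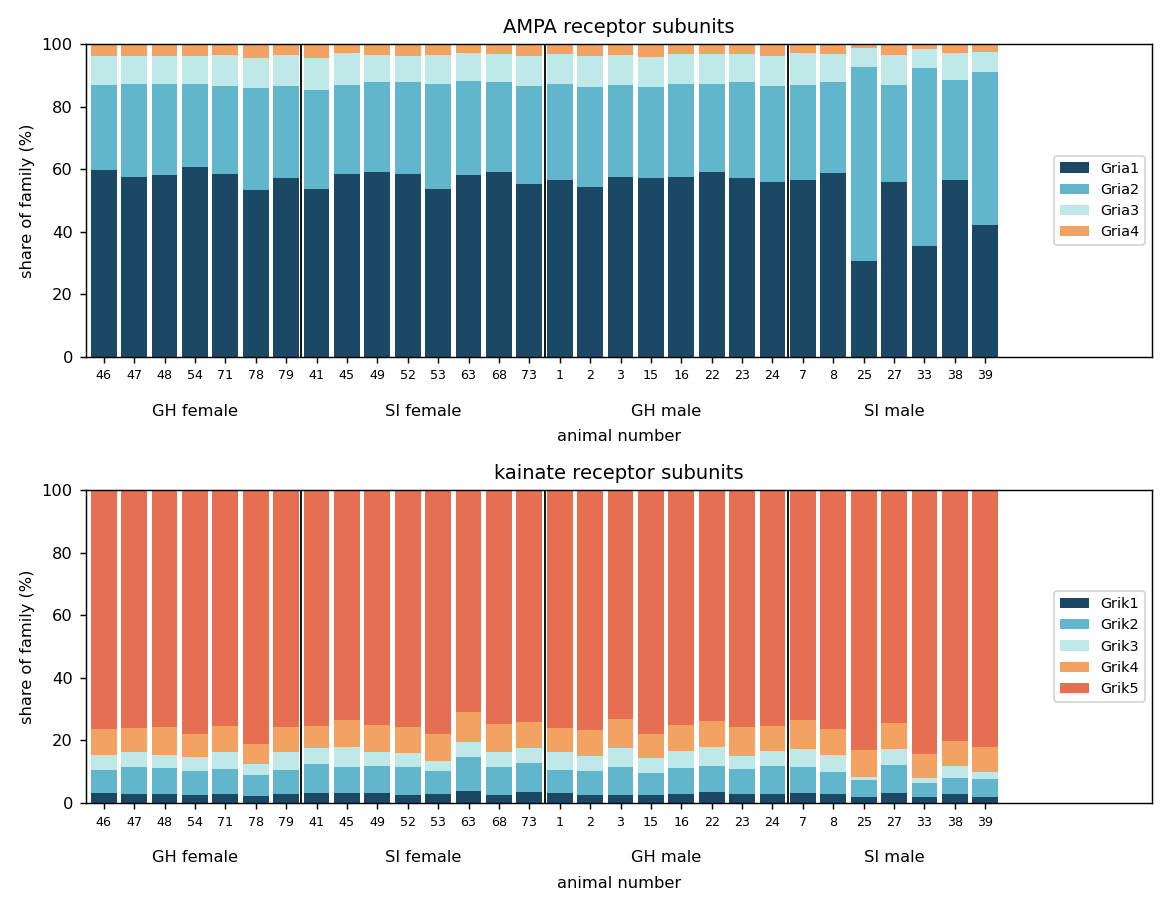
Stacked bars give, for each mouse, the share (%) of each subunit gene in the summed level per length of its family, AMPA above and kainate below, ordered by group and animal number. Levels are per kilobase of the longest transcript, and the shares would differ with another length. Gria1 is the largest AMPA share in 27 mice, Gria2 is the largest in SI males 25, 33 and 39, and Grik5 is above 71% of the kainate sum in every mouse.

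Whether isolation altered the subunit genes was asked within each sex. The test was the quasi-likelihood test of edgeR with surrogate variables as covariates, followed by Benjamini-Hochberg adjustment over all genes tested at a threshold of 0.05. Log2 fold changes (Log2FC) are SI relative to GH. Of the 16026 genes tested in females 624 passed the threshold (3.89%), of which 470 were lower (2.93%) and 154 higher (0.961%) under SI, and 0 of the 9 subunit genes did. At an unadjusted p under 0.05 stood 3 of the 9, against 20.2% of all genes tested, with 1 of the 9 lower (11.0% of all genes) and 2 higher (9.29%). In males 0 of 15833 genes passed (0%), the lowest adjusted p of any gene being 0.295, and 2 of the 9 subunit genes stood at an unadjusted p under 0.05, against 13.0% of all genes. Both were lower under SI (7.38% of all genes) and 0 were higher (5.63%). The SI and GH groups were apart in CPM for 0 of the 9 genes in either sex, against 0.300% of all genes in females and 0.0568% in males. With DESeq2 and the same surrogate variables 1 subunit gene passed in females, where 1262 of the 16026 genes passed. In males 0 subunit genes and 44 of the 15833 genes passed with DESeq2. In bulk tissue, fewer cells of a type and less RNA per cell cannot be told apart.

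**Figure D2:**
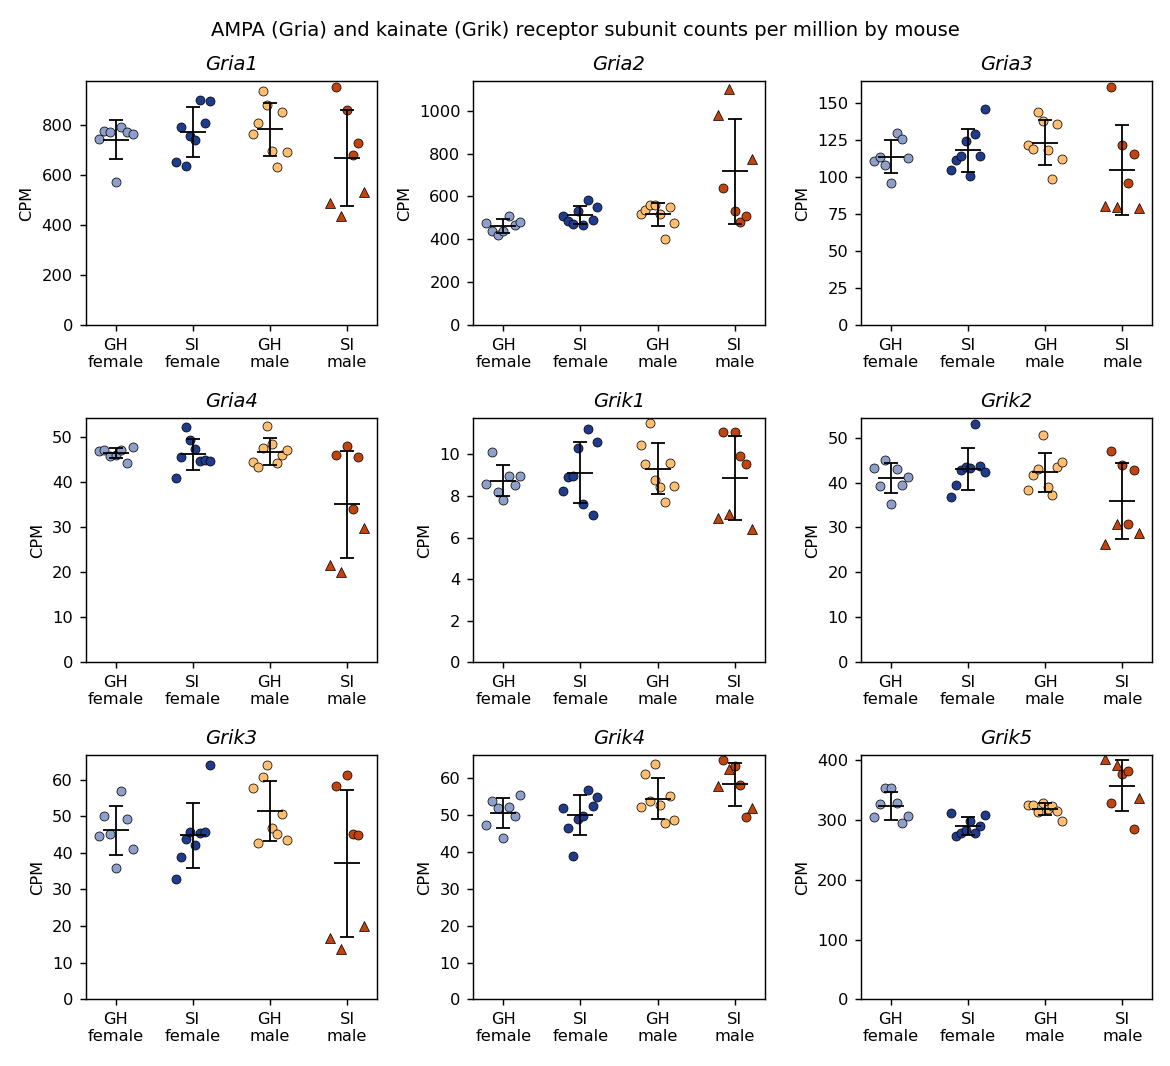
Each panel plots 1 subunit gene in CPM (TMM-scaled over all 30 mice), with 1 point for each mouse, a line and bars for the mean ± SD of the group, and triangles for SI males 25, 33 and 39. Grik5 is lower in most SI than GH females, and the triangles lie above the other mice for Gria2 and below them for Gria1, Gria4 and Grik3.

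Grik5, the most abundant kainate subunit gene here, whose product needs GluK1, GluK2 or GluK3 as a partner, came closest to the threshold in females. In SI females it was at 274 to 312 CPM with a median of 287, and in GH females at 295 to 353 CPM with a median of 328. The groups overlapped, but 5 of 8 SI females lay below the lowest GH female and 8 of 8 lay below the GH median. The Log2FC was -0.15 (SE 0.0427, 95% confidence interval -0.24 to -0.06), with an edgeR p of 0.00237 and an adjusted p of 0.0548. It ranked 691 by p among the 16026 genes. Under 3 other settings it passed, with an adjusted p of 0.00914 by DESeq2, 0.0315 with surrogate variables estimated on CPM and 0.00892 with all groups in 1 edgeR fit. Of the 15 fits that left out 1 female it passed in 1, without GH female 47, at an edgeR adjusted p of 0.0456. Without surrogate variables the edgeR adjusted p was 0.232, and with the position digit of the sample titles in their place 0.342. It also did not pass with DESeq2's size factors in edgeR, without the filter, or with the length and GC trend removed. The Log2FC kept its sign in all of these and lay between -0.18 and -0.14 when each female was left out in turn.

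Markers of several cell types moved alongside in females. All 6 astrocyte markers had a negative Log2FC, and 3 of them passed the threshold, Slc1a2 at -0.28, Slc1a3 at -0.24 and Aldh1l1 at -0.27 (edgeR adjusted p 0.0108, 0.0140 and 0.0215). The summed astrocyte level was 3537 to 4869 CPM in SI and 4148 to 5791 CPM in GH females. Of the 6 neuron markers 4 had a positive Log2FC, while Map2 and Camk2a were lower and passed, at -0.28 and -0.24 (edgeR adjusted p 0.0220 and 0.0197). The neuron list summed to 9459 to 10649 CPM in SI and 9875 to 12171 CPM in GH females. All 6 oligodendrocyte and all 6 microglia markers had a negative Log2FC and 0 passed. All 6 choroid plexus markers (median Log2FC 0.27) and all 6 dentate granule markers (median 0.11) were positive and 0 passed. The oligodendrocyte precursor, CA1 and thalamus lists held both signs and 0 passed. All 5 endothelial markers were positive, Flt1 passed at 0.14 (edgeR adjusted p 0.0496), and the list summed to 161 to 199.5 CPM in SI and 131 to 164 CPM in GH females. Of the 8 interneuron markers 6 were positive and 2 negative, and Npy passed at 0.15 (edgeR adjusted p 0.0350). Of the 6 CA3 markers 4 were positive and 2 negative, with a median Log2FC of 0.007. Cdh24 alone of the CA3 list passed, at 0.39 (edgeR adjusted p 0.0343). The part of these markers in the Grik5 values was not tested. In males all 6 thalamus markers had a positive Log2FC (median 0.51), 4 of them at an unadjusted edgeR p under 0.05, against 5.63% of all genes. Their sum was 91.5 to 224 CPM in SI and 94.3 to 121 CPM in GH males. All 6 astrocyte markers were negative in males (median -0.21), and the other lists held both signs. The part of the markers in the male subunit values was not tested.

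In males Grik5 pointed the other way, but not without the 3 libraries. In GH males it lay within 299 to 329 CPM with a median of 321, a narrow range. In SI males it was at 285 to 402 CPM with a median of 378. Of the SI males 6 of 7 were above the highest GH male and 1, animal 27, was below the lowest. The fitted Log2FC was 0.10 (SE 0.0695, 95% confidence interval -0.05 to 0.25), with an edgeR adjusted p of 0.531. Without SI male 27 it was 0.18 and passed the threshold (edgeR adjusted p 0.0470), in a fit where 2414 genes passed against 0 with all males. Without SI males 25, 33 and 39 it was -0.05 (SE 0.0384, edgeR adjusted p 0.913). The fitted value and the plain levels of the 4 remaining SI males differ in sign, since their mean was 343 CPM against 318 CPM in GH males and the fit also holds surrogate variables.

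The Log2FC of Grik5 in females minus that in males was -0.17 in 1 fit of all mice (SE 0.0601, 95% confidence interval -0.29 to -0.04). The edgeR interaction test over all 4 groups gave a p of 0.0103 and an adjusted p of 0.549, so the sexes were not shown to differ. Of 16391 genes 0 passed that test (0%), with 7.75% at an unadjusted p under 0.05 (3.53% with the lower and 4.22% with the higher value in females) and 11 genes passing by DESeq2. Without SI males 25, 33 and 39 the difference was again -0.17 (edgeR adjusted p 0.360). Gria4 was the only other member past the unadjusted threshold for the interaction, at 0.12 (SE 0.0564, edgeR adjusted p 0.636).

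Gria2, whose edited product sets the calcium permeability of the AMPA receptor, was higher in SI than in GH females on average. It was at 465.6 to 586 CPM with a median of 501 in SI females and at 420 to 511 CPM with a median of 469 in GH females. Of the SI females 3 of 8 were above the highest GH female and 7 of 8 above the GH median, and the groups overlapped. The Log2FC was 0.15 (SE 0.0550, 95% confidence interval 0.04 to 0.27), with an edgeR p of 0.0136 and an adjusted p of 0.130. It passed the threshold under 1 setting, with the trend against transcript length and GC content taken out (Log2FC 0.16, edgeR adjusted p 0.0422).

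In males the Gria2 levels were spread widely under SI. GH males were at 404 to 561 CPM with a median of 529, and SI males at 482 to 1104 CPM with a median of 640. The 3 highest were animals 25, 33 and 39, at 1104, 982 and 775 CPM. The other 4 SI males were at 482, 509, 533 and 640 CPM, of which 1 was above the highest GH male. The Log2FC was 0.13 (SE 0.112, 95% confidence interval -0.11 to 0.36, edgeR adjusted p 0.630) with surrogate variables, 0.48 without them (edgeR adjusted p 0.133) and 0.04 without the 3 libraries (edgeR adjusted p 0.951).

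Gria1, the most abundant AMPA subunit gene, overlapped between housing groups in both sexes. It was at 634 to 898 CPM with a median of 772 in SI females and at 570 to 791 CPM with a median of 769 in GH females. The Log2FC was 0.07 (SE 0.0407, 95% confidence interval -0.02 to 0.16, edgeR adjusted p 0.363). In males it was at 434 to 948 CPM under SI and 631 to 934 CPM under GH, and the 3 SI males below the lowest GH male were animals 25, 33 and 39. The male Log2FC was -0.02 (SE 0.0738, 95% confidence interval -0.17 to 0.14, edgeR adjusted p 0.9497), and it was also -0.02 without the 3 libraries (edgeR adjusted p 0.976).

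Gria3, which is X-linked, was at 101 to 146 CPM in SI and 95.7 to 130 CPM in GH females, with a Log2FC of 0.05 (95% confidence interval -0.07 to 0.17, edgeR adjusted p 0.694). In males it was at 78.98 to 160 CPM under SI and 98.5 to 144 CPM under GH, with a Log2FC of -0.06 (95% confidence interval -0.25 to 0.13, edgeR adjusted p 0.802). Animals 25, 33 and 39 were the 3 lowest, at 78.98 to 80.3 CPM, and without them the Log2FC was -0.02 (edgeR adjusted p 0.979).

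Gria4 was at 41.01 to 52.3 CPM in SI and 44.2 to 47.8 CPM in GH females, with a Log2FC of -0.0004 (95% confidence interval -0.10 to 0.10, edgeR adjusted p 0.997). In males it was at 19.99 to 48.1 CPM with a median of 34.0 under SI and at 43.4 to 52.6 CPM with a median of 46.6 under GH. The SI males below the lowest GH male numbered 4, which were animals 25, 33 and 39 at 19.99, 21.7 and 29.9 CPM and animal 38 at 34.0 CPM. The male Log2FC was -0.20 (SE 0.0720, 95% confidence interval -0.35 to -0.05), with an edgeR p of 0.0129 and an adjusted p of 0.330. Without the 3 libraries it was -0.05 (edgeR adjusted p 0.918), and without SI male 27 it was -0.33 and passed the threshold (edgeR adjusted p 0.00595). In the fit without SI male 27, 2414 genes passed, against 0 with all males.

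Grik3, a low-affinity kainate subunit gene, gave the widest spread of any member in SI males relative to its mean. It was at 13.7, 16.8 and 20.1 CPM in animals 25, 33 and 39 and at 44.8, 45.1, 58.1 and 61.4 CPM in the other 4. GH males were at 42.7 to 64.1 CPM with a median of 48.8, so the other 4 lay within the GH range. The Log2FC was -0.13 (SE 0.0567, 95% confidence interval -0.25 to -0.01), with an edgeR p of 0.0303 and an adjusted p of 0.355. Without the 3 libraries it was also -0.13 (edgeR adjusted p 0.844). The plain levels differ in sign from that fit, since the mean was 52.4 CPM in the other 4 SI males and 51.4 CPM in GH males. Grik3 passed the threshold without SI male 38, at -0.35, and without SI male 27, where 2414 genes passed against 0 with all males. In females it was at 32.8 to 64.0 CPM under SI and 35.9 to 56.9 CPM under GH, with a Log2FC of -0.03 (95% confidence interval -0.18 to 0.11, edgeR adjusted p 0.844).

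Grik2, which encodes the main channel-forming kainate subunit of the hippocampus, was at 36.9 to 52.99 CPM in SI and 35.1 to 44.996 CPM in GH females. The female Log2FC was 0.11 (SE 0.0511, 95% confidence interval 0.00 to 0.22), with an edgeR p of 0.0481 and an adjusted p of 0.242. Of the SI females 6 of 8 were above the GH median and 1 was above the highest GH female. In males it was at 26.3 to 47.02 CPM under SI and 37.3 to 50.5 CPM under GH, with a Log2FC of -0.11 (95% confidence interval -0.29 to 0.07, edgeR adjusted p 0.579) and of 0.05 without the 3 libraries (edgeR adjusted p 0.942).

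Grik1 and Grik4 overlapped between housing groups in both sexes. Grik1 was at 7.10 to 11.2 CPM in SI and 7.82 to 10.1 CPM in GH females, with a Log2FC of 0.03 (95% confidence interval -0.14 to 0.20, edgeR adjusted p 0.892). Grik4, which encodes the other high-affinity subunit, was at 38.9 to 56.7 CPM in SI and 43.9 to 55.3 CPM in GH females, with a Log2FC of -0.01 (95% confidence interval -0.14 to 0.12, edgeR adjusted p 0.953). In males the Log2FC was 0.12 for Grik1 (95% confidence interval -0.07 to 0.31, edgeR adjusted p 0.553) and 0.08 for Grik4 (95% confidence interval -0.08 to 0.24, edgeR adjusted p 0.650). Without the 3 libraries it was 0.08 for Grik1 and -0.01 for Grik4 (edgeR adjusted p 0.943 and 0.997). Grik4 differed from Grik1 to Grik3 in SI males 25, 33 and 39, since its 51.9 to 62.6 CPM there lay within the 47.9 to 63.8 CPM of GH males.

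**Figure D3:**
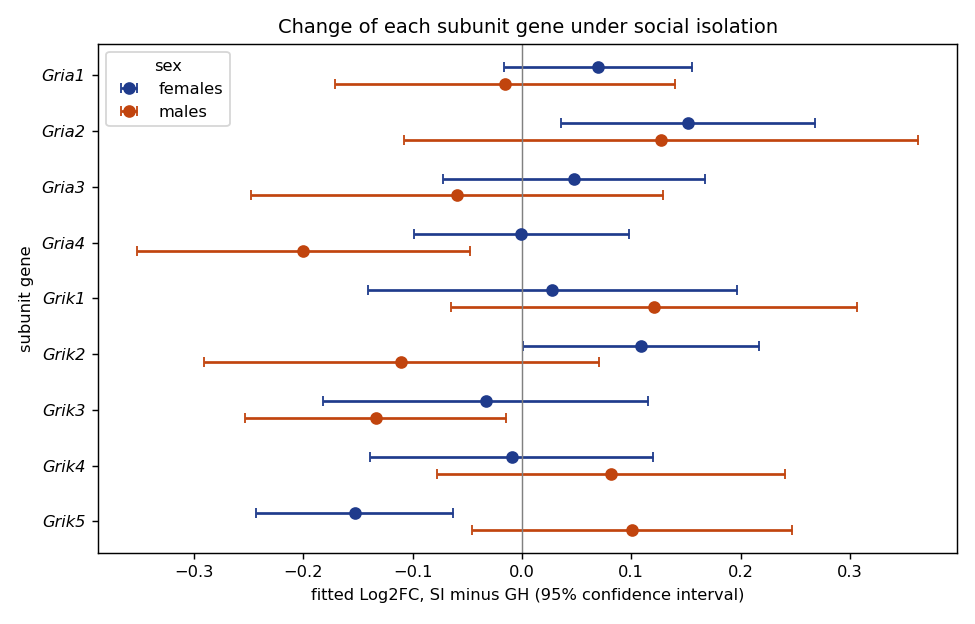
Points give the fitted Log2FC of SI against GH (x axis) for each subunit gene (y axis) in females and in males, with bars for the 95% confidence interval. Grik5 lies at -0.15 in females and 0.10 in males, and no subunit gene passes the threshold in either sex after adjustment over all genes tested.

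Among GH mice the members did not differ by sex past the threshold. Of 15981 genes 187 passed (1.17%) and 0 of the 9 did, nor was any of the 9 at an unadjusted p under 0.05, against 17.4% of all genes. The Log2FC of females relative to males ran from -0.09 for Gria2 (edgeR adjusted p 0.409) to 0.08 for Grik5 (edgeR adjusted p 0.369). DESeq2 passed 586 genes for this comparison and edgeR without surrogate variables 64.

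The members' levels followed the transcript length slope of the library to differing degrees. Because 3 libraries form a cluster of their own, the relation was taken over the other 27 mice, on log2 CPM with the group means removed, and is given as a description, since the libraries were made in the same way and the slope itself is taken from all genes of a library. Pearson's r with the length slope was 0.91 for Gria1 (Spearman's rho 0.93), 0.90 for Gria3 (rho 0.95), 0.84 for Grik3 (rho 0.84), 0.69 for Grik2 (rho 0.58) and 0.67 for Gria2 (rho 0.75). It was 0.57 for Grik1, 0.50 for Grik4, 0.41 for Gria4 and -0.27 for Grik5 (rho 0.67, 0.56, 0.21 and -0.21). Without the 2 mice farthest from the median slope, r was 0.89 for Gria1, 0.93 for Gria3 and -0.09 for Grik5. Gria2 went with the slope among these 27, yet was highest in the 3 libraries with the lowest slope.

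**Figure D4:**
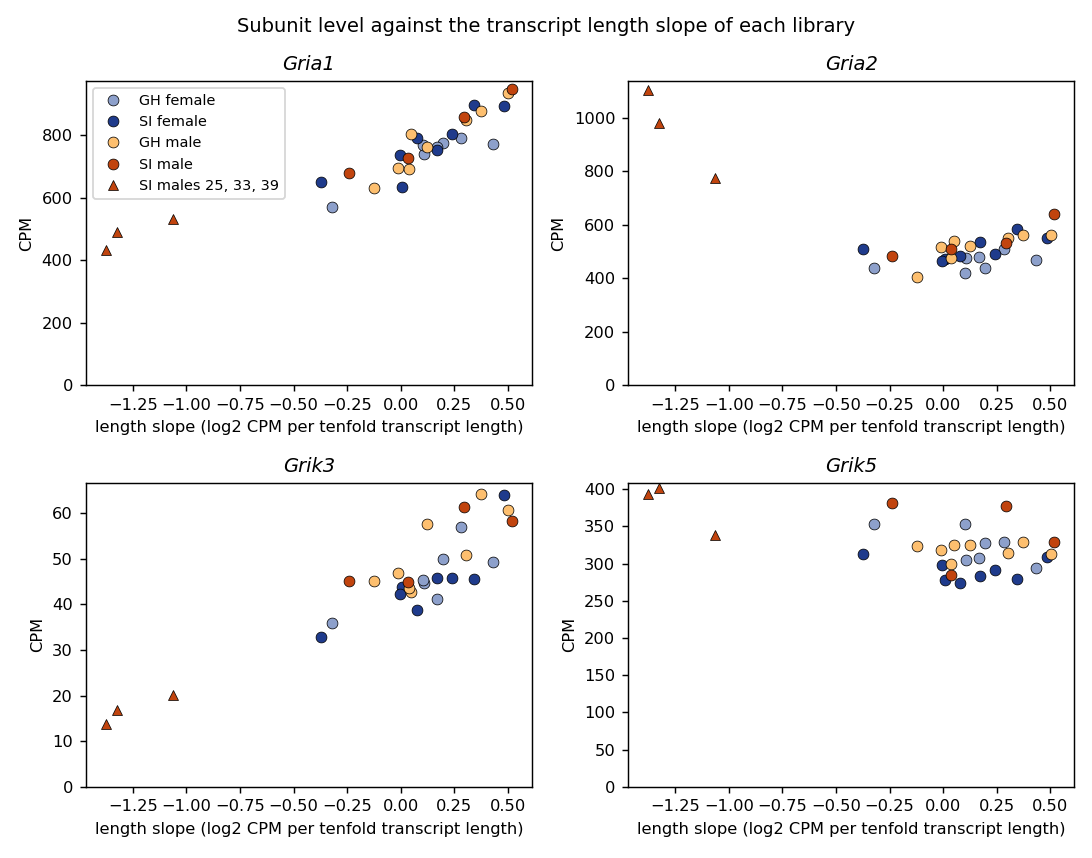
Each panel plots the CPM of 1 subunit gene (y axis) against the length slope of the library (x axis, change in log2 CPM per unit of log10 transcript length), with 1 point for each of 30 mice and triangles for SI males 25, 33 and 39. Gria1 and Grik3 are low and Gria2 is high in the 3 libraries with slopes below -1, while Grik5 shows little relation to the slope among the other 27 mice.

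Among the same 27 mice the AMPA genes Gria1, Gria2 and Gria3 varied together, with r of 0.73 for Gria1 and Gria2 (rho 0.74), 0.84 for Gria1 and Gria3 and 0.85 for Gria2 and Gria3. This was not particular to the AMPA genes. Across the families r was 0.76 for Gria3 and Grik3, and 0.73 for Gria1 with Grik3 and with Grik4. Other pairs across the families were lower, down to -0.33 for Gria4 and Grik5. The part of the length slope in these values was not tested. Gria4 was less close to the other AMPA genes, with r of 0.24 with Gria1, 0.24 with Gria2 and 0.41 with Gria3. Grik5 had r between -0.34 (with Grik2) and 0.34 (with Grik4) with the other members. The 2 genes nearest to each member over all 30 mice were Ust and Lsamp for Gria1 (r among the 27 mice 0.96 for both), 2610101N10Rik and Ube3a for Gria2 (0.79 and 0.81), and Usp9x and Cntn1 for Gria3 (0.95 for both). They were Eps8l3 and Pde3b for Gria4 (0.76 and 0.83), Prep and Mcph1 for Grik1 (0.79 for both), and Csmd3 and Acvr2a for Grik2 (0.88 and 0.86). For Grik3 they were Adar and Mef2d (0.92 and 0.91), for Grik4 Slitrk5 and Grin2b (0.77 and 0.73), and for Grik5 Gdap1l1 and Asphd2 (0.83 and 0.79). Ranked over the 27 mice alone, the nearest gene was the same for Gria1 (Ust) and Grik2 (Csmd3) and another for the rest. It was Ipo11 for Gria2 (r 0.94), Ltn1 for Gria3 (0.97), Kitl for Gria4 (0.85), Dcaf12l1 for Grik1 (0.83), Nisch for Grik3 (0.93), Faah for Grik4 (0.86) and Agap3 for Grik5 (0.92).

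Genes whose products assemble, carry, anchor or edit these receptors, and relatives of such genes, were examined by lists, of which 41 of 42 genes were tested. In females 0 of the 41 passed the threshold, and 27 had a positive and 14 a negative Log2FC. Of the 16026 genes tested in females 8464 had a positive Log2FC. The median Log2FC was 0.06 against 0.01 over all genes tested. At an unadjusted p under 0.05 stood 16 of the 41 (13 higher and 3 lower), against 20.2% of all genes (9.29% higher and 11.0% lower). In males 0 of the 41 passed, and 27 were positive and 14 negative, against 7812 positive of the 15833 genes tested. At an unadjusted p under 0.05 in males stood 8 (6 higher and 2 lower), against 13.0% of all genes (5.63% higher and 7.38% lower). The male median was 0.05 against -0.00 over all genes.

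The lists with the smallest female p-values were those of assembly factors and extracellular organizers. All 6 assembly factors had a positive Log2FC in females, led by Porcn, an acyltransferase found in AMPA receptor complexes, at 0.14 (SE 0.0391, edgeR adjusted p 0.0583). Porcn was also first of its list in males, at 0.22 (SE 0.0788, edgeR adjusted p 0.323). Of the 8 extracellular organizers Nptx2, a secreted pentraxin that clusters AMPA receptors, had the smallest female p, at 0.26 (SE 0.0797, edgeR adjusted p 0.0715). In males it was C1ql2, a mossy fibre protein that recruits kainate receptors, at 0.24 (edgeR adjusted p 0.350).

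Of the 12 AMPA receptor auxiliary subunits tested, Cacng7 was first in females at -0.15 (edgeR adjusted p 0.0969) and Cacng2 (stargazin) in males at 0.27 (edgeR adjusted p 0.330). The kainate receptor auxiliary subunits gave -0.06 for Neto1 in females and -0.14 for Neto2 in males (edgeR adjusted p 0.532 and 0.477). Among 8 genes listed for binding and trafficking, Grasp was first in females at 0.10 and Dlg1 (SAP97) in males at -0.21 (edgeR adjusted p 0.104 and 0.330). Grasp here is ENSMUSG00000000531, a gene other than Gripap1, and a role of it in AMPA receptor trafficking was not tested. Of the 3 genes of the RNA editing family (Adar, Adarb1 and Adarb2) Adarb2 was first in females at 0.21 (edgeR adjusted p 0.0867). A change in editing cannot be read from its level. Adarb1, which edits the Gria2 codon shown above, was at -0.07 in females (edgeR adjusted p 0.725) and -0.09 in males (edgeR adjusted p 0.671).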

How the data were processed

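Per the labels and the study's methods, poly-A-selected hippocampal libraries of 30 mice were sequenced as paired ends. The authors trimmed reads with Trimmomatic 0.39, quantified them with Salmon 1.8.0 and deposited raw, whole-number gene counts with 1 column for each mouse. The submitters' processing notes name GRCm39 (mm39). Counting by strand is not given in the sources used here. The coordinates printed are those of NCBIM37 (GENCODE vM1), matched by Ensembl ID, with symbols for 16439 of 17477 IDs (94.1%).

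The analysis used edgeR 4.0.16 in R 4.3.3 (filterByExpr with minimum count 10 and minimum total count 15, TMM, glmQLFit and glmQLFTest). Surrogate variables came from svaseq (sva 3.50.0, 20 permutations, seed 1), 3 in females, 2 in males and 4 in the interaction and in the comparison of GH mice by sex. Adjusted p-values are Benjamini-Hochberg values over all genes tested, with a threshold of 0.05. Alternatives were DESeq2 1.42.0, no surrogate variables, DESeq2's size factors, no filter, all groups in 1 fit, the position digit of the sample titles as a factor, a lowess trend (span 0.3) against transcript length and GC content taken out of each library, leaving out each mouse, and leaving out SI males 25, 33 and 39. Surrogate variables on CPM and the coding length were chosen after seeing the data. Length slopes and correlations used log2(CPM + 0.5). The steps were run on simulated data that held no shared factor beyond library size and housing. The work of the surrogate variables was therefore not tested by them. Each mouse is 1 library and cages are not given, so mice that shared a cage were treated as independent.

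The subunits, the lists of related genes and markers and the tests were chosen with earlier results of these data known. Genes named are the 9 subunits, the gene with the smallest p of each related list in each sex, the markers that moved with a result and the 2 genes nearest to each subunit over 30 mice. The nearest genes over 27 mice were added after their values were seen. The result of 1 list is not reported here. Adarb1 in females was named after its value was seen. Shisa8 could not be matched to an ID.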

Additional observations from a re-analysis of the deposited data

Results flagged for a closer look

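Of 44 pairs of a group and a measure (subunit levels and shares) 3 held a mouse far from the rest of its group, by the ratio of its gap to the group's range, where chance alone gives about 1 in 20. GH female 78 had a Gria1 level of 570 CPM, with the nearest other GH female at 741 CPM. SI female 63 had a Grik2 level of 52.99 CPM, with the nearest other SI female at 43.6 CPM. SI female 45, the deepest library, had a Grik3 level of 64.0 CPM, with the nearest other SI female at 45.7 CPM.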

How the results depend on the processing

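In females 624 genes passed in the reported fit, 1262 with DESeq2, 944 with the length and GC trend removed, 829 with all groups in 1 fit, 733 with surrogate variables on CPM, and 0 both without surrogate variables and with the position digit. Leaving out each female gave 88 (without SI 68) to 1427 (without GH 78). The number of subunits passing was 1 with DESeq2, surrogate variables on CPM or all groups in 1 fit (Grik5) and 1 with the trend removed (Gria2), and 0 to 1 without single females. In males 0 genes passed in the reported fit, 44 with DESeq2, 21 with all groups in 1 fit, 1 without SI males 25, 33 and 39, and 0 to 2414 without single males (2414 without SI 27, where 3 subunits passed, Gria4, Grik3 and Grik5). For the interaction, 11 genes passed with DESeq2 and 2 both with the trend removed and with surrogate variables on CPM. For GH mice by sex the 187 became 586 with DESeq2, 64 without surrogate variables and 366 with surrogate variables on CPM. The cause of these shifts was not tested.

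The sign of small Log2FC values turned under some settings. In females Grik4 was 0.0045 with the trend removed, and Gria4 was 0.0044 with surrogate variables on CPM and 0.044 with all groups in 1 fit. In males Grik1 was -0.064 without surrogate variables and -0.12 with the position digit, Gria1 was 0.064 and Gria3 0.036 with the trend removed, and Gria1 was 0.026 and Grik2 0.00034 with all groups in 1 fit. Without SI males 25, 33 and 39, Grik2 was 0.048, Grik4 -0.011 and Grik5 -0.046. For the interaction Gria2 was -0.33 and Grik1 0.13 without surrogate variables, and Gria2 was -0.022 with surrogate variables on CPM. Gria4 by sex among GH mice was -0.0091 without surrogate variables. Leaving out each mouse gave -0.033 to 0.023 for Gria4, -0.038 to 0.088 for Grik1 and -0.044 to 0.025 for Grik4 in females, and -0.12 to 0.044 for Gria1 and -0.22 to 0.00031 for Gria3 in males. No paired analysis was possible because animal numbers are unique to a mouse.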
